A study of Penicillium oxalicum with 12 samples.

Results

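Penicillium oxalicum is a mould known for the cellulases it secretes. Of the 9931 genes measured in its mycelia, 4 with roles at the plasma membrane are described here. By the deposited descriptions they are PDE_03497, a Na+-exporting ATPase, PDE_06899, a proton-dependent oligopeptide transporter of the POT family, PDE_00845, a yeast amino acid transporter, and PDE_08419, an arrestin-related trafficking adapter 3/6. They were picked from the table for large rises in the laeA deletion strain, so their difference between that strain and the wild type is given as a description, with no test. PDE_06899 and PDE_00845 belong to families of importers, whereas PDE_03497 is described as an exporter and PDE_08419 as an adapter that carries nothing itself. All 4 were tested in the other comparisons, and all 4 would also have passed the filter on low values in the 9 libraries without DlaeA.

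The strains were DlaeA, a deletion of laeA, H2BK123A and H2BK131A, 2 histone H2B mutants with alanine in place of lysine 123 or of lysine 131, and WT, the wild type 114-2. Each strain had 3 libraries, numbered in the labels, which makes 12 in all. Every strain was grown from conidia for 22 h at 30 °C on 2% glucose, then washed and moved to Mandel's medium, again with 2% glucose, where mycelia were sampled after 24 h. The labels do not say whether each mutant was 1 transformant, whether a complemented strain was made, or whether replicate libraries go back to separate cultures. The p-values below therefore reflect the spread between libraries, which could be technical.

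In Saccharomyces cerevisiae, Na+-exporting P-type ATPases pump sodium out of the cell and are needed at high salt and alkaline pH. POT family carriers bring di- and tripeptides into the cell with protons. Yeast amino acid transporters are membrane permeases of a large family whose members differ in the amino acids they take up. Arrestin-related trafficking adapters of S. cerevisiae bind such permeases and bring the HECT ubiquitin ligase Rsp5 to them, which marks the permeases for endocytosis or sorting. LaeA is a protein with a methyltransferase domain that regulates secondary metabolism and development in filamentous fungi, and ubiquitin on lysine 123 of H2B in S. cerevisiae is linked to transcription. Whether the H2B numbering used here matches that of S. cerevisiae is not given in the labels.

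Levels are in FPKM, that is, per kilobase of transcript and relative to library size, as the authors deposited them. The sums over all genes were 709483.7 to 764698.6 per library and 157 to 284 genes per library were listed at 0. Absolute depth is unknown. No description names laeA, but PDE_00584, which is laeA as recalled from the literature, was at 0 to 0.11 FPKM in DlaeA libraries and at 33.42 to 39.36 FPKM in the libraries of the other strains. WT 2 stood apart from the other WT libraries: the log2 difference between WT 2 and WT 1 or WT 3 had an SD of 1.04 or 0.719 over genes between 100 and 1000 FPKM, against 0.484 between WT 1 and WT 3. DlaeA 2 and DlaeA 3 were the most alike pair, with an SD of 0.0938, against 0.371 and 0.378 for their pairs with DlaeA 1. Without counts that closeness could not be set against sampling noise, so results that rest on DlaeA were also computed with the mean of DlaeA 2 and DlaeA 3 as 1 library.

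**Figure D1:**
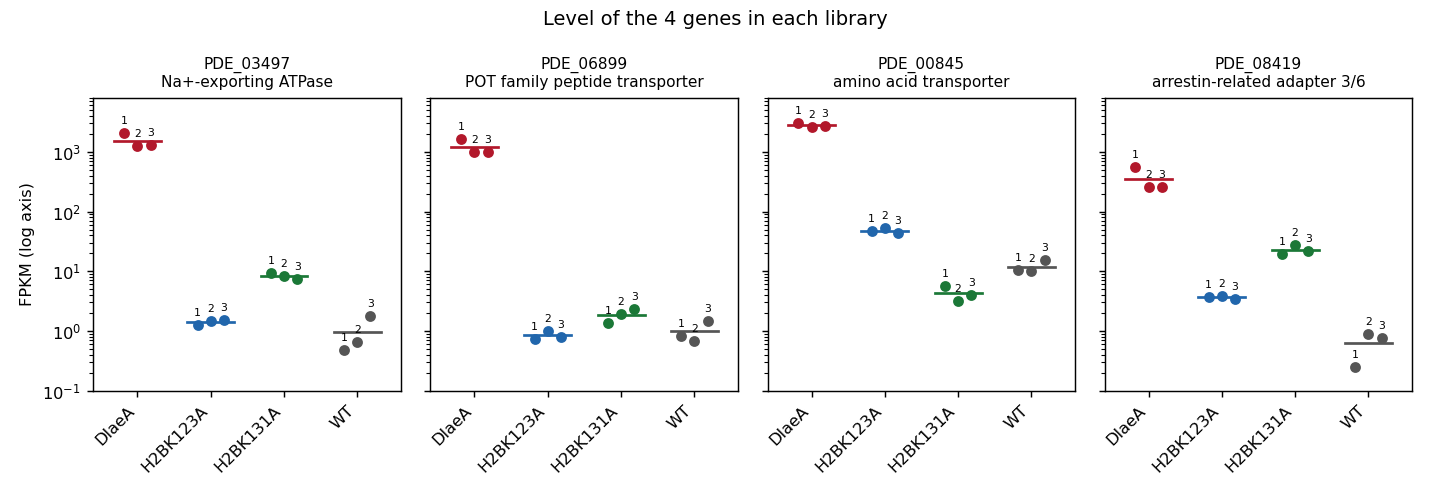
FPKM (log axis) of the 4 genes in each of the 12 libraries, with the library number beside each point and a line at the mean of each strain. All DlaeA libraries lie at 254.16 FPKM or above for every gene, whereas the order of H2BK123A, H2BK131A and WT is not the same for all 4.

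PDE_03497, the Na+-exporting ATPase, was a high transcript in DlaeA and close to absent in H2BK123A and WT. It had 2048.91, 1233.00 and 1300.31 FPKM in DlaeA 1, 2 and 3, against 0.47, 0.64 and 1.75 FPKM in WT 1, 2 and 3. The means were 1527 ± 453 FPKM in DlaeA and 0.953 ± 0.695 FPKM in WT (SD, n = 3 each), and the log2 difference of FPKM + 1 was 9.63 ± 0.23 (SE). The difference ranked 2 among the rises of all 9431 tested genes. The DlaeA and WT libraries do not overlap in any of the 4 genes, nor in 70.3% of all tested genes. Among those genes 46.3% were called higher in DlaeA, called meaning a limma adjusted p under 0.05. In DlaeA the mean of PDE_03497 ranked 46 of 9931 genes, whereas in WT 10.5% of genes were lower. H2BK131A libraries had 9.34, 8.20 and 7.42 FPKM, all above every WT library, and the gene was 8.73-fold higher than in WT (log2 2.31 ± 0.23, adjusted p = 3.49e-06). H2BK123A libraries had 1.27, 1.47 and 1.54 FPKM, which overlap the WT libraries, and the difference did not pass the test (log2 0.37 ± 0.23, adjusted p = 0.219). Without WT 3, the highest WT library, that difference was 0.64 with an adjusted p of 0.0264. The fold values of this gene against WT rest on WT levels near 0 and are uncertain in size.

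The table holds a second gene described as Na+-exporting ATPase, PDE_04634, and it too was higher in DlaeA. It had 1662.44, 1186.17 and 1221.75 FPKM in DlaeA, against 43.92, 17.7 and 28.76 FPKM in WT, a log2 difference of 5.52 ± 0.26 (adjusted p = 5.49e-09). The pair lay close together in DlaeA and apart in the other strains, where PDE_04634 had a mean of 58.0 ± 8.28 FPKM in H2BK123A, 58.6 ± 4.69 FPKM in H2BK131A and 30.1 ± 13.2 FPKM in WT. PDE_04634 was called higher than in WT in H2BK123A (log2 1.00, adjusted p = 0.0077) and in H2BK131A (log2 1.02, adjusted p = 0.00357). PDE_03497 held 52.6 ± 2.3% of the summed FPKM of the pair in DlaeA, 2.43 ± 0.396% in H2BK123A, 12.4 ± 0.849% in H2BK131A and 3.43 ± 2.34% in WT (SD, n = 3 each). Such shares compare genes per kilobase and depend on the transcript lengths behind the FPKM. The families compared here and below hold only genes with a single KEGG name. Genes matched only through several KEGG names were left out, so shares and ranks may not cover whole families. By words for the wider functions these were 2 ion pumps, 2 peptide transporters, 7 amino acid transporters and 1 arrestin or HECT gene. Neither the counting strand nor the treatment of reads matching several genes is given in the sources used here, so reads of near-identical or overlapping genes could be split between them, for this pair and for the other families.

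PDE_06899, the POT family peptide transporter, was close to absent in every strain but DlaeA. It had 1619.27, 1006.90 and 981.63 FPKM in DlaeA, against 0.82, 0.67 and 1.45 FPKM in WT. The means were 1203 ± 361 FPKM in DlaeA and 0.98 ± 0.414 FPKM in WT (SD, n = 3 each), a log2 difference of 9.23 ± 0.21 that ranked 3 among all rises. Apart from DlaeA, no library exceeded 2.29 FPKM. H2BK123A had 0.73, 1.01 and 0.79 FPKM, which overlap the WT libraries (log2 -0.09 ± 0.21, adjusted p = 0.761). H2BK131A had 1.34, 1.89 and 2.29 FPKM, which also overlap WT, and the difference passed the test narrowly (log2 0.53 ± 0.21, adjusted p = 0.0407). That call was lost in 8 of 13 alternative settings, among them both other scalings of the libraries, over which the adjusted p ranged from 0.0157 to 0.49.

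The other genes with a single KEGG name of the POT family moved the opposite way in DlaeA. PDE_05534, the highest of the family in WT, had 0.91, 1.57 and 0.89 FPKM in DlaeA, against 438.2, 422.23 and 408.36 FPKM in WT (log2 -7.66 ± 0.17, adjusted p = 1.35e-11). PDE_05978 averaged 35.8 ± 2.47 FPKM in DlaeA and 140 ± 66.3 FPKM in WT (log2 -1.79, adjusted p = 0.000297). With PDE_06899 high and both others low, PDE_06899 held 96.9 ± 0.623% of the family's FPKM in DlaeA, 0.161 ± 0.0131% in H2BK123A, 1.04 ± 0.387% in H2BK131A and 0.173 ± 0.0648% in WT. The family's summed level without PDE_06899 averaged 37.0 FPKM in DlaeA, 519.6 FPKM in H2BK123A, 183.2 FPKM in H2BK131A and 562.7 FPKM in WT. In H2BK131A both others were lower than in WT as well, PDE_05534 at 144 ± 37.9 FPKM (log2 -1.57, adjusted p = 6.38e-06) and PDE_05978 at 38.8 ± 5.04 FPKM (log2 -1.68, adjusted p = 0.000424). In H2BK123A PDE_05978 was lower, at 26.3 ± 2.42 FPKM (log2 -2.22, adjusted p = 0.000198), and PDE_05534 was at 493 ± 48.4 FPKM, a difference that did not pass the test (log2 0.22, adjusted p = 0.323). One further gene with a peptide transporter description, PDE_01916, carries a conflicting name, cation-transporting ATPase 13A1, and was lower in DlaeA (log2 -3.87) and in H2BK131A (log2 -3.38).

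PDE_00845, the amino acid transporter, was the highest of the 4 genes in DlaeA and the one with a clear level in WT. It had 3079.70, 2627.10 and 2666.91 FPKM in DlaeA, against 10.55, 9.95 and 15.13 FPKM in WT. The means were 2791 ± 251 FPKM in DlaeA and 11.9 ± 2.83 FPKM in WT (SD, n = 3 each), a log2 difference of 7.78 ± 0.18. The point mutants lay on opposite sides of WT. H2BK123A had 47.81, 53.20 and 43.25 FPKM, all above every WT library and 4.05-fold higher on average (log2 1.95 ± 0.18, adjusted p = 1.52e-05). H2BK131A had 5.74, 3.18 and 3.96 FPKM, all below every WT library and at 0.361 of the WT mean (log2 -1.29 ± 0.18, adjusted p = 5.79e-05). Both calls were kept in every alternative tried, with an adjusted p of at most 0.000712 for H2BK123A and 0.00215 for H2BK131A.

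The table holds 18 genes with yeast amino acid transporter as their single KEGG name. By mean FPKM PDE_00845 ranked 1 among them in DlaeA, 7 in H2BK123A, 18 in H2BK131A and 12 in WT. Its share of the family's FPKM was 76.3 ± 1.19% in DlaeA, 6.54 ± 0.449% in H2BK123A, 0.704 ± 0.186% in H2BK131A and 1.1 ± 0.291% in WT. The other 17 did not follow it: in DlaeA 5 were called higher, 9 lower and 3 not called. Over all tested genes 46.3% were called higher and 23.6% lower in DlaeA. After median ratio scaling 4 of the 17 were higher and 9 lower, and after quantile scaling 5 higher and 9 lower. The median log2 difference of the 17 was -0.65 as deposited, against 0.27 over all tested genes. Their summed level averaged 865 FPKM in DlaeA and 1070 FPKM in WT. The largest rises among them in DlaeA were PDE_04432 (400 ± 40.8 against 60.3 ± 9.49 FPKM in WT, log2 2.72) and PDE_01211 (208 ± 50.3 against 47.0 ± 5.7 FPKM in WT, log2 2.10). The largest falls were PDE_00830, at 0.41 ± 0.231 FPKM in DlaeA and 123 ± 50.4 FPKM in WT (log2 -6.37), and PDE_01802, at 19.9 ± 8.68 FPKM in DlaeA and 381 ± 75.3 FPKM in WT (log2 -4.25). PDE_01802 was the highest gene of the family in WT and in H2BK123A, and PDE_00830 was the highest in H2BK131A. In H2BK131A PDE_04259 stood out among the family with 15.17, 18.92 and 15 FPKM, against 0.86, 0.87 and 0.45 FPKM in WT (log2 3.33, adjusted p = 3.8e-09), and PDE_06018 fell to 11.8 ± 3.19 FPKM, against 104 ± 28.9 FPKM in WT (log2 -3.02, adjusted p = 2.8e-07).

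PDE_08419, the arrestin-related adapter, was the lowest of the 4 genes in DlaeA and was higher than WT in all 3 mutants. It had 554.72, 256.07 and 254.16 FPKM in DlaeA, against 0.25, 0.89 and 0.77 FPKM in WT. The means were 355 ± 173 FPKM in DlaeA and 0.637 ± 0.340 FPKM in WT (SD, n = 3 each), a log2 difference of 7.69 ± 0.27. H2BK131A libraries had 19.13, 27.26 and 21.97 FPKM, which do not overlap WT and average 35.8-fold higher (log2 3.87 ± 0.27, adjusted p = 1.5e-07). H2BK123A libraries had 3.72, 3.79 and 3.47 FPKM, also above every WT library and 5.75-fold higher (log2 1.53 ± 0.27, adjusted p = 0.000906). The gene thus had the order DlaeA, H2BK131A, H2BK123A, WT, and no neighbours in that order overlapped. Its fold values against WT rest on WT levels near 0 and are uncertain in size.

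PDE_08419 held 56.9 ± 10.1% of the FPKM of the 5 arrestin-related adapters in DlaeA, 0.886 ± 0.177% in H2BK123A, 2.87 ± 0.156% in H2BK131A and 0.269 ± 0.125% in WT, and was the lowest of the 5 in every strain but DlaeA. PDE_00743, singled out here after its values were seen because it has the same description, averaged 92.8 ± 1.81 FPKM in DlaeA, 79.7 ± 8.33 FPKM in H2BK123A, 61.4 ± 2.0 FPKM in H2BK131A and 62.3 ± 3.41 FPKM in WT. Its difference between DlaeA and WT was 0.57 on the log2 scale (adjusted p = 0.000191). The largest change in the family outside PDE_08419 was in H2BK131A: PDE_08927, an adapter 4/5/7, averaged 477 FPKM there and 12.1 FPKM in WT (log2 5.20, adjusted p = 4.05e-09), while its DlaeA mean of 8.14 FPKM did not differ from WT by the test (log2 -0.50, adjusted p = 0.068). PDE_08927 was called lower in DlaeA after median ratio scaling (log2 -0.75, adjusted p = 0.0118). PDE_07428, an adapter 1, was called higher than in WT in DlaeA (log2 1.60), H2BK123A (log2 1.91) and H2BK131A (log2 2.15), and PDE_05457, an adapter 9, was lower in DlaeA (log2 -1.39) and H2BK131A (log2 -0.59) and higher in H2BK123A (log2 0.71, adjusted p = 0.00437).

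**Figure D2:**
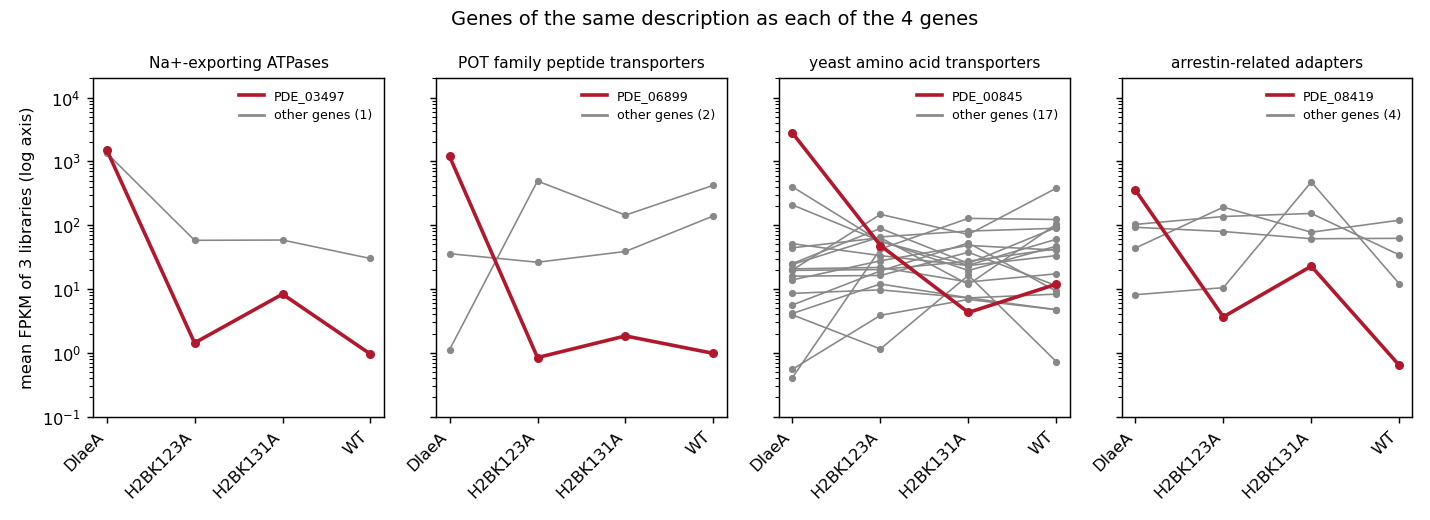
Mean FPKM over 3 libraries (log axis) in each strain for the genes that share a description with each of the 4 genes, the member as a thick red line and the others in grey. Each member is the highest line of its panel in DlaeA only, and both other POT family genes lie far below PDE_06899 there. Genes with several KEGG names are not drawn.

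The comparison of H2BK131A with H2BK123A asks whether the H2B mutants differ from each other, and the libraries it compares are not those on which the choice of the genes rested. Its spread was estimated over all 12 libraries, and with the libraries of these 2 strains alone all 4 calls were kept, with an adjusted p of at most 0.00866. The comparisons of either H2B strain with WT share the WT libraries with that choice, and with each other. H2BK131A differed from H2BK123A in all 4 genes, against 68.7% of all tested genes called in this comparison. PDE_08419 was 6.23-fold higher in H2BK131A (log2 2.34 ± 0.27, adjusted p = 1.21e-05) and PDE_03497 was 5.83-fold higher (log2 1.94 ± 0.23, adjusted p = 1.73e-05). PDE_00845 went the other way, with H2BK131A at 0.0893 of the H2BK123A mean (log2 -3.24 ± 0.18, adjusted p = 4.78e-08). In this comparison 32.9% of all tested genes were called higher and 35.8% lower. The libraries of the 2 strains do not overlap in any of the 4 genes, as in 78.5% of all tested genes. PDE_06899 was 2.18-fold higher in H2BK131A (log2 0.61 ± 0.21, adjusted p = 0.0213), but its highest H2BK123A library was at 1.01 FPKM and its lowest H2BK131A library at 1.34 FPKM. Leaving out H2BK123A 1, H2BK123A 3, H2BK131A 2 or H2BK131A 3 ended that call, with log2 differences of 0.57, 0.59, 0.59 and 0.50.

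Against WT, 2 of the 4 genes were called in H2BK123A, both higher, where 46.6% of all tested genes were called and 33.5% were called higher. The same 2 genes had no overlap between the libraries of H2BK123A and WT, as did 52.7% of all tested genes. In H2BK131A all 4 were called, 3 higher and 1 lower, where 70.8% of all tested genes were called, 40.6% higher and 30.2% lower. Of these, 3 had no overlap between the libraries of H2BK131A and WT, as did 70.5% of all tested genes. With 4 genes these counts do not set the group apart. Relative to the median of all tested genes, which was 0.18 in H2BK123A and 0.13 in H2BK131A on the log2 scale, the differences from WT were 2.18 for PDE_03497, 0.40 for PDE_06899, -1.42 for PDE_00845 and 3.74 for PDE_08419 in H2BK131A. In H2BK123A they were 0.19, -0.27, 1.77 and 1.35 in the same order of genes.

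**Figure D3:**
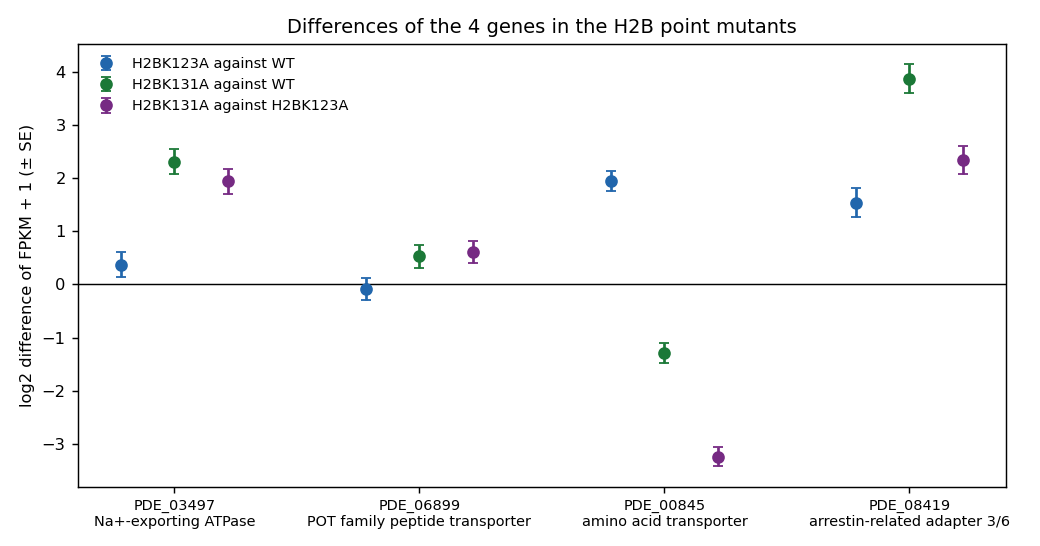
Log2 difference of FPKM + 1 (± SE) of the 4 genes for H2BK123A against WT, H2BK131A against WT and H2BK131A against H2BK123A. PDE_00845 has opposite signs in the H2B mutants (1.95 and -1.29), and PDE_08419 is above 0 in all 3 comparisons.

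The 3 DlaeA libraries did not hold the 4 genes at 1 level. Each gene was highest in DlaeA 1, by 1.58 times the higher of DlaeA 2 and DlaeA 3 for PDE_03497, 1.61 times for PDE_06899, 1.15 times for PDE_00845 and 2.17 times for PDE_08419. Of the 1340 genes with a mean of at least 100 FPKM in DlaeA, 46.6% were highest in DlaeA 1, the median of the same ratio was 0.978 and 3.66% exceeded 1.5. The ratio of PDE_08419 was above that of 99.4% of these genes, that of PDE_06899 above 97.2%, that of PDE_03497 above 96.9% and that of PDE_00845 above 80.1%. The 4 genes were chosen for rises in these same libraries, which can favour genes with a high value in 1 of them. These ranks are therefore description only. With DlaeA 2 and DlaeA 3 counted as 1 library, the log2 difference from WT was 9.75 for PDE_03497, 9.35 for PDE_06899, 7.82 for PDE_00845 and 7.87 for PDE_08419. Averaging gives DlaeA 1 more weight, and each gene was highest there, so these values were bound to be at least as large as before. Without DlaeA 1 the log2 differences were 9.40, 8.99, 7.71 and 7.31 in the same order of genes. With all 3 libraries they were 9.63, 9.23, 7.78 and 7.69.

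**Figure D4:**
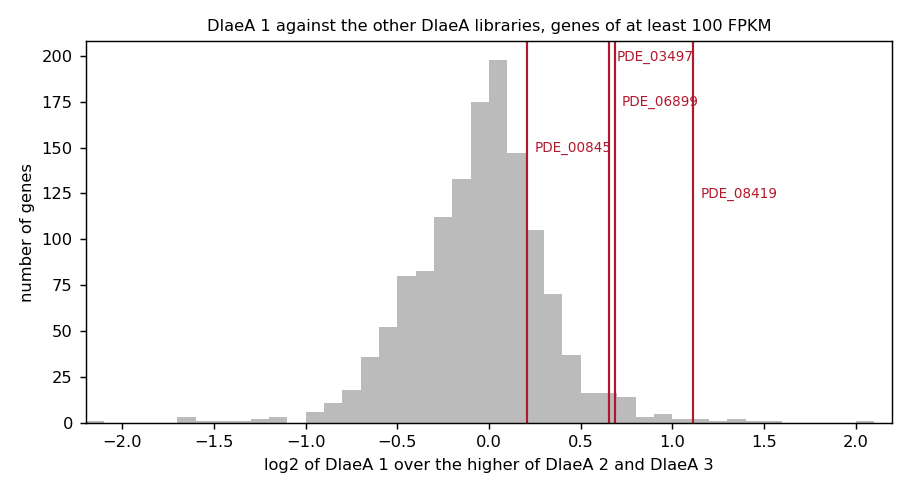
Number of genes by the log2 ratio of DlaeA 1 over the higher of DlaeA 2 and DlaeA 3, for 1340 genes with a mean of at least 100 FPKM in DlaeA, with red lines at the 4 genes. PDE_08419, at 2.17 times, lies in the far right tail, and PDE_00845, at 1.15 times, lies within the bulk.

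The genes around these functions were followed in 7 lists defined by words in the descriptions, with the 4 genes left out. A gene entered a list through its single KEGG name or its protein description, and these names could conflict. Genes matched only through several KEGG names were left out, among them 3 other nitrogen source transporters and 2 nitrogen regulators. In DlaeA 69.9% of all tested genes were called, 46.3% higher and 23.6% lower, so 66.3% of calls were higher. That split was 50.4% after median ratio scaling and 56.0% after quantile scaling, and for H2BK123A it was 71.8% as deposited, 49.5% after median ratio scaling and 51.2% after quantile scaling. In H2BK123A 33.5% of all tested genes were called higher and 13.1% lower, and in H2BK131A 40.6% higher and 30.2% lower.

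Of 44 other ion pumps and exchangers, 22 were higher and 10 lower in DlaeA. After median ratio scaling 16 were higher and 18 lower, and after quantile scaling 18 higher and 10 lower. Most of that list are subunits of the mitochondrial F-type (15 genes) and vacuolar V-type (15 genes) proton ATPases. In DlaeA 2 F-type genes were higher and 7 lower, and 13 V-type genes were higher, or 7 after median ratio scaling. In H2BK131A all 15 F-type genes were higher, against 40.6% of all tested genes, but 8 after quantile scaling. The remaining 14, a division made after the values were known, had 7 higher and 3 lower in DlaeA and a median log2 difference of 0.40, against 0.27 over all genes. Beside PDE_04634, the largest rise among them was PDE_05150, a Ca2+-transporting ATPase, with 178.54, 182.4 and 187.2 FPKM in DlaeA, against 1.16, 1.29 and 1.07 FPKM in WT (log2 6.40, adjusted p = 7.75e-13). PDE_05150 was also higher than in WT in H2BK123A, at 4.25 ± 0.557 FPKM (log2 1.27), and in H2BK131A, at 11.4 ± 0.417 FPKM (log2 2.51, adjusted p = 2.43e-09). The largest fall in DlaeA was PDE_01674, an H+-transporting ATPase, at 584 ± 83.4 FPKM in DlaeA and 2340 ± 150 FPKM in WT (log2 -2.01, adjusted p = 8.53e-07). In H2BK123A 4 of the 14 were higher and 4 lower, but 3 were higher and 7 lower after median ratio scaling and 2 higher and 6 lower after quantile scaling. In H2BK131A 6 were higher and 5 lower, which turned to 3 higher and 5 lower after median ratio scaling and 4 higher and 5 lower after quantile scaling. PDE_08937, described as a sodium/potassium-transporting ATPase subunit alpha, was at 18.1 ± 1.19 FPKM in H2BK131A and 63.1 ± 5.33 FPKM in WT (log2 -1.75). The called count of the 14 in H2BK123A was 5 without H2BK123A 1, H2BK123A 2 or WT 1, and that in H2BK131A was 7 without H2BK131A 2 or H2BK131A 3.

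Among 26 other amino acid transporters, which include the family above, 9 were higher and 11 lower in DlaeA, 5 higher and 6 lower in H2BK123A, and 11 higher and 10 lower in H2BK131A. After median ratio scaling these counts were 3 higher and 10 lower in H2BK123A and 9 higher and 12 lower in H2BK131A, and after quantile scaling 4 higher and 8 lower in H2BK123A and 10 higher and 11 lower in H2BK131A. In DlaeA the lower calls stayed the more frequent, with 6 higher and 12 lower after median ratio scaling and 7 higher and 12 lower after quantile scaling. The median log2 differences were -0.07, -0.05 and 0.03 in that order of strains, against 0.27, 0.18 and 0.13 over all genes. The called count in H2BK123A was 7 when only the libraries of H2BK123A and WT were fitted. Without WT 3 it was also 7. Over all tested genes 46.3% were called higher and 23.6% lower in DlaeA, 33.5% and 13.1% in H2BK123A, and 40.6% and 30.2% in H2BK131A. Of 7 other arrestin-related adapters and HECT ligases, 5 were higher and 1 lower in DlaeA, 5 were higher and 2 not called in H2BK123A, and 3 were higher and 2 lower in H2BK131A. After either other scaling the counts were 5 higher and 2 lower in DlaeA and 4 higher in H2BK123A. With 7 genes these counts do not set the list apart from all tested genes. The median log2 differences of the 7 were 0.57 in DlaeA, 0.71 in H2BK123A and -0.02 in H2BK131A, against 0.27, 0.18 and 0.13 over all genes in the same order of strains. The HECT domain ligase PDE_09909 was higher in DlaeA (log2 2.36, adjusted p = 0.000156) and H2BK123A (log2 2.33, adjusted p = 0.000499), and PDE_07024, described as NEDD4 like the mammalian counterpart of Rsp5, was lower in H2BK131A (log2 -0.51).

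Transporters of other nitrogen sources were called higher in 11 and lower in 1 of 17 tested genes in H2BK123A, with a median log2 difference of 1.03, against 0.18 over all genes. After median ratio and quantile scaling the counts were 10 higher and 1 lower. Over all tested genes 33.5% were called higher and 13.1% lower in H2BK123A as deposited. In DlaeA 8 of the 17 (47.1%) were higher and 5 lower, against 46.3% and 23.6% of all tested genes. In H2BK131A 8 (47.1%) were higher and 6 lower, against 40.6% and 30.2%. The counts in DlaeA and H2BK131A do not set this list apart. PDE_00679, an ammonium transporter of the Amt family, had the largest rise, to 229 ± 11.4 FPKM in H2BK131A, against 3.78 ± 1.92 FPKM in WT (log2 5.68, adjusted p = 1.66e-08). In DlaeA the largest rise was PDE_00604, a xanthine/uracil permease (122 ± 9.29 FPKM, against 15.5 ± 3.98 FPKM in WT, log2 2.92), and the largest fall PDE_06884, an allantoate permease (2.89 ± 0.757 FPKM, against 55.2 ± 7.13 FPKM in WT, log2 -3.86). Of 6 nitrogen regulators 4 were higher in DlaeA, with the larger differences in PDE_02911 and PDE_07067, described as nitrogen permease regulators 2 and 3 (log2 0.59 each), which in S. cerevisiae act upstream of the TORC1 kinase. After either other scaling 3 of the 6 were higher in DlaeA. In H2BK123A 3 of the 6 were higher, but 1 was higher and 1 lower after median ratio scaling. In H2BK131A 3 were higher and 1 lower. With 6 genes these counts do not set the regulators apart from all tested genes.

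The list of pH and calcium signalling held 1 gene with a usable name, PDE_05163, described as PacC, which in Aspergillus nidulans is the transcription factor of the response to alkaline pH. It averaged 921 ± 79.3 FPKM in DlaeA, 45.8 ± 1.96 FPKM in H2BK123A, 34.2 ± 0.46 FPKM in H2BK131A and 34.4 ± 2.28 FPKM in WT. The DlaeA libraries lay far above all others (log2 4.70 ± 0.09 against WT, adjusted p = 3.44e-12). The difference of H2BK123A from WT (log2 0.40, adjusted p = 0.00368) was lost after median ratio scaling (log2 0.19, adjusted p = 0.0531), and that of H2BK131A (log2 -0.01, adjusted p = 0.948) became a fall there (log2 -0.18, adjusted p = 0.047).

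**Figure D5:**
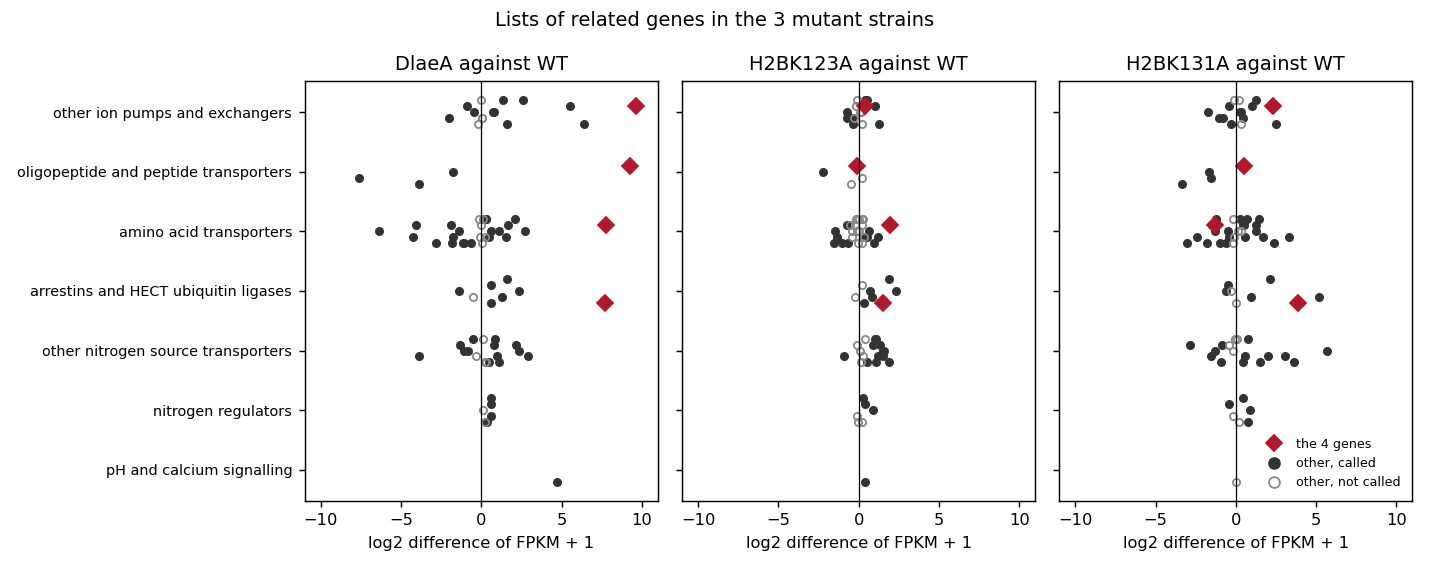
Log2 difference of FPKM + 1 for each gene of the 7 lists in DlaeA, H2BK123A and H2BK131A against WT, with the 4 genes as red diamonds, other called genes filled and genes not called open. F-type and V-type ATPase subunits are left out of the ion list, and PacC at 4.70 is the only gene of the bottom row.

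Markers of conidiation were also followed, and in DlaeA they did not all move the same way. The list of conidiation and hydrophobin markers held 4 genes, of which 3 were higher and 1 lower in DlaeA, against 46.3% and 23.6% of all tested genes. Their summed level was 789.8 to 819.2 FPKM in DlaeA, 100.6 to 209.7 FPKM in H2BK123A, 100.2 to 543.2 FPKM in H2BK131A and 124.0 to 446.5 FPKM in WT. PDE_00087, described as BrlA, the activator of conidiophore development in Aspergillus, averaged 435 ± 20.2 FPKM in DlaeA, 13.6 ± 4.61 FPKM in H2BK123A, 2.01 ± 0.0924 FPKM in H2BK131A and 18.1 ± 11.7 FPKM in WT. PDE_03008, described as FlbD, averaged 371 ± 5.19 FPKM in DlaeA, 66.8 ± 6.69 FPKM in H2BK123A, 5.29 ± 1.31 FPKM in H2BK131A and 100.1 ± 37.3 FPKM in WT. A second gene described as BrlA, PDE_00079, was low in every strain, at 2.14 FPKM in DlaeA and 0.387 FPKM in WT. PDE_01188, described as DIT1, had 1.02, 0.91 and 0.61 FPKM in DlaeA, against 376.45, 5.93 and 164.12 FPKM in WT, where WT 2 was the lowest. In H2BK131A 2 of the 4 were lower, against 30.2% of all tested genes. In H2BK123A limma called 0 of the 4, with 1 at an unadjusted p under 0.05, against 46.6% of all tested genes called. PDE_03008 was called lower in H2BK123A after either other scaling. Leaving out WT 1 gave 2 calls there, PDE_03008 and PDE_00087, and leaving out WT 2 gave 1, PDE_01188. The part of asexual structures in the levels of the 4 genes was not tested, and fewer cells of a type cannot be told apart from less RNA per cell in such libraries.

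Genes with locus numbers within 3 of the 4 genes were read as possible neighbours, though their positions in the genome were not checked. PDE_08418, which has no description, shared the order of strains of PDE_08419: it had 290.12, 128.3 and 135.5 FPKM in DlaeA, 12.68, 8.81 and 11.22 FPKM in H2BK123A, 110.51, 99.48 and 83.9 FPKM in H2BK131A and 6.16, 4.35 and 4.99 FPKM in WT. Its log2 differences from WT were 4.82 ± 0.27 in DlaeA (adjusted p = 2.45e-08) and 4.01 ± 0.27 in H2BK131A (adjusted p = 1.01e-07). In H2BK123A the difference was 0.95 (adjusted p = 0.013), and it was lost after quantile scaling or without H2BK123A 1. PDE_03498, next in number to PDE_03497 and also without a description, had 224.32, 128.07 and 118.44 FPKM in DlaeA, against a mean of 0.383 ± 0.253 FPKM in WT (log2 6.79, adjusted p = 3.31e-10). Unlike PDE_03497 it averaged 0.253 ± 0.131 FPKM in H2BK131A, a difference from WT that did not pass the test (log2 -0.13, adjusted p = 0.626). Both genes were highest in DlaeA 1, as were the 4 genes. PDE_03500, a choline transport protein 3 numbers from PDE_03497, went the other way in DlaeA, at 3.57 ± 1.16 FPKM there and 72.3 ± 18.8 FPKM in WT (log2 -4.00, adjusted p = 4.1e-08). Around PDE_06899 and PDE_00845 the differences were smaller, with log2 2.56 for PDE_06900 and 2.42 for PDE_06902 (the actin regulator PAN1), and 2.31 for PDE_00846 and 2.65 for PDE_00847, in DlaeA against WT.

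The genes whose values ran most like each of the 4 were taken by Pearson's r of log2(FPKM + 1) over the 12 libraries, a measure of likeness across 4 strains that carries no test. For PDE_03497 they were PDE_03594, described as subunit 4 of the conserved oligomeric Golgi complex (r = 0.9977), PDE_04034, a Xaa-Pro dipeptidase (r = 0.9965), PDE_03381, a kinase HSL1 (r = 0.9944), and 2 genes without a description. PDE_03594 averaged 207 FPKM in DlaeA, 17.0 FPKM in H2BK123A, 29.3 FPKM in H2BK131A and 16.3 FPKM in WT. For PDE_06899 the 5 were led by PDE_06293 (r = 0.9983) and included 1 described gene, PDE_08250, a putative exo-beta-1,3-glucanase (r = 0.9972) at 295 FPKM in DlaeA and 1.39 FPKM in WT. For PDE_00845 all 5 were described. The first were PDE_03444, a dihydroxy-acid dehydratase of branched-chain amino acid synthesis (r = 0.9933), PDE_08639, a 2-hydroxyacyl-CoA lyase (r = 0.9931), and PDE_04454, an alpha-glucosidase (r = 0.9929). The others were PDE_03897, a PP1 phosphatase catalytic subunit (r = 0.9922), and PDE_03181, a putative cell-wall beta-1,6-glucan active enzyme (r = 0.9921). PDE_03897 averaged 118 FPKM in DlaeA, 13.8 FPKM in H2BK123A, 1.81 FPKM in H2BK131A and 5.18 FPKM in WT, the order of strains seen for PDE_00845. For PDE_08419 the closest was an H+-transporting ATPase, PDE_09509 (r = 0.9960), at 7.16 FPKM in DlaeA, 0.95 FPKM in H2BK123A, 2.3 FPKM in H2BK131A and 0.37 FPKM in WT. The 4 genes themselves were left out of this search. These r values include the DlaeA libraries for which the 4 genes were chosen, so a high r partly restates that choice. For the pairs of PDE_00845 with PDE_03497, PDE_06899 and PDE_08419, r was 0.865, 0.922 and 0.745 over 12 libraries. Without DlaeA it was -0.648, -0.689 and -0.497. The other pairs of the 4 genes had r of 0.984, 0.958 and 0.9 over 12 libraries, and 0.832, 0.943 and 0.723 without DlaeA.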

How the data were processed

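The deposited table holds 1 FPKM value per gene and library, per the file headers, from 12 libraries. Libraries were made by NlaIII and MmeI tag profiling, per the labels' protocols, for which a per-kilobase unit is unusual. No aligner, counter, build or annotation is given in the sources used here. FPKM can be compared for 1 gene between libraries, but small differences depend on how libraries are scaled. The median log2 difference between DlaeA and WT over all tested genes was 0.27 as deposited and 0.0151 after median ratio scaling. Between genes FPKM values depend on the transcript lengths used.

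Absolute depth is unknown. Of 750 low values above 1 read, 64.0% were whole multiples of a gene's lowest step within 0.1 read, too few for a count model.

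Values were transformed to log2(FPKM + 1), which understates changes of low genes, and fitted by strain alone across the 12 libraries (limma 3.58.1 under R 4.3.3; empirical Bayes with a trend; 8 residual degrees of freedom; tests two-sided). Genes with at least 1 FPKM in at least 3 libraries were tested (9431, with 500 not tested), with Benjamini-Hochberg adjustment per comparison and calls at 0.05. The fit was tested on simulated data. Groups came from the sample titles.

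Names were single KEGG names or usable protein descriptions (5132 genes, while 825 with several KEGG names got none from KEGG). The reference table holds 0 PDE loci, so sequences and coordinates were not used here. Named genes were the 4 genes, their 5 most alike genes, genes within 3 locus numbers, the 2 largest called rises and falls per list and mutant, and all markers. The members and lists were chosen with earlier results of these data known. Alternatives were 2 other scalings, pseudocounts of 0.5 and 0.1, no filter, only the strains compared, a replicate block, each library left out, and DlaeA 2 and DlaeA 3 averaged.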

Additional observations from a re-analysis of the deposited data

Results flagged for a closer look

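The effects of the H2B mutations on the 4 genes differed from each other by a test of the difference itself, limma on log2(FPKM + 1) with adjustment over all tested genes, in which 68.7% of genes were called. H2BK131A minus H2BK123A was 1.94 for PDE_03497 (8.32 and 1.43 FPKM), 0.61 for PDE_06899 (1.84 and 0.843 FPKM), -3.24 for PDE_00845 (4.29 and 48.1 FPKM) and 2.34 for PDE_08419 (22.8 and 3.66 FPKM), all on the log2 scale with 3 libraries per strain. The difference of PDE_06899 rests on values near the lowest of the table.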

How the results depend on the processing

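Over the alternatives tried, 245 of 265 values (counts of called genes and log2 differences of the 4 genes) kept their direction and side of the threshold, or moved by less than their spread, and 0 reversed a call. The rise in DlaeA depended on the pseudocount for the genes near 0 in WT: with 0.5 it was 10.1 for PDE_03497, 9.66 for PDE_06899 and 8.24 for PDE_08419, and with 0.1 it was 10.66, 10.15 and 8.95. Median ratio scaling gave 7.51 for PDE_00845. For PDE_06899 in H2BK131A against WT, the call was lost with median ratio scaling (0.43, adjusted p = 0.0949), quantile scaling (0.20, adjusted p = 0.49), only the strains compared (0.53, adjusted p = 0.0561) and the replicate block (0.53, adjusted p = 0.0603), and its values without 1 library ranged from 0.41 to 0.69; the cause was not tested. Without 1 library, the same gene in H2BK131A against H2BK123A ranged from 0.50 to 0.75 (up to 1.02 in the other settings), and PDE_03497 in H2BK123A against WT from 0.19 to 0.64 (0.013 to 0.73 in the other settings). Deviations of libraries with the same number had correlations of -0.224 to 0.211, and those of libraries with different numbers -0.224 to 0.224. With 3 libraries per strain this cannot show whether a number marks a shared batch. With the block 6489, 4195 and 6567 genes were called in DlaeA, H2BK123A and H2BK131A against WT and 6359 in H2BK131A against H2BK123A. Leaving out 1 library gave 6119 to 6926, 3524 to 5234, 6161 to 6825 and 5939 to 6200 calls. The block changed no other call of the 4 genes. The value of 1 read in low genes could not be fixed, which limits what can be read from PDE_06899 outside DlaeA. The same limit holds for PDE_03497 and PDE_08419 in WT, at means of 0.953 and 0.637 FPKM, and so for their fold values against WT.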
